A study of Rattus norvegicus with 6 samples.

Results

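Iron storage, haem handling and iron transport were followed through 10 genes in messenger RNA of rat pancreatic islets, the clusters of hormone-secreting cells scattered through the pancreas. The 10 genes were taken by symbol from the 17055 gene rows of each library, and all 10 had a row, Ftl1 under its older symbol Ftl. They were selected on the measured read counts, for the higher adult levels of Fth1, Hpx and Hmox1 in the same 6 libraries, so their differences between the ages are a description and carry no test. Islets of Sprague-Dawley rats labelled as controls were sequenced at 2 ages, P10 (10-day-old, 1.5 weeks) and adult (3-month-old males, 12 weeks), with 3 libraries labelled as biological replicates at each age. The sex of the P10 rats and the number of animals behind a library are not given in the sources used here, so the spread between libraries may not be one between single animals. No genetic change or treatment is named for either group.

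Cells take up iron mainly as transferrin (Tf) bound to the transferrin receptor (Tfrc), and the divalent metal transporter DMT1 (Slc11a2) carries it from endosomes into the cytosol. Surplus iron is stored in ferritin, a shell of heavy chains (Fth1), which oxidise iron, and light chains (Ftl1), which help to lay down the iron core, and it leaves the cell through ferroportin (Slc40a1). Ceruloplasmin (Cp) is a copper enzyme that oxidises exported iron, haptoglobin (Hp) and hemopexin (Hpx) bind free haemoglobin and haem in plasma, and haem oxygenase 1 (Hmox1) breaks haem down. Beta cells, the insulin-producing cells of the islet, are known for weak antioxidant defences, which makes the handling of free iron a matter of interest in this tissue.

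The libraries held between 3307415 and 6477825 reads assigned to genes, and levels are given as CPM, which is the count divided by a library size adjusted for composition by TMM (trimmed mean of M values). A count of 3 in a library corresponded to between 0.407 and 1.0995 CPM, for counting error only. Beta-cell markers were abundant in every library, and the 2 insulin genes took between 28.3% and 33.6% of the gene counts at P10 and between 46.6% and 52.3% in adults. Marker genes of fibroblasts summed to between 2511 and 3212 CPM at P10 and between 245 and 346 CPM in adults, and those of ducts to between 1447 and 1555 CPM and between 268 and 399 CPM. In whole islets, fewer cells of a type and less RNA per cell cannot be told apart.

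Over all genes, 26.3% of the 10124 genes tested passed a false discovery rate (FDR) of 0.05 in edgeR's quasi-likelihood test, 12.5% as higher and 13.8% as lower in adults, and the libraries of the 2 ages did not overlap in 42.3%. Of the 10 members 9 had enough counts to be tested. Beside that background, 5 members were higher in adults past the threshold (Fth1, Ftl1, Hpx, Hmox1 and Slc11a2), 2 were lower (Tf and Cp), and Tfrc and Slc40a1 did not pass. The libraries did not overlap in the 7 members that passed. The choice of members fixed part of these counts, so nothing is read from them. The median log2 fold change of the 9 members was 1.03, against -0.03 over all genes tested. Beta-cell markers had a median of 1.06, and 6 of the 8 tested passed as higher (75%, against 12.5% of all genes). Alpha-cell markers had a median of -0.59, and 2 of the 6 tested passed, both as lower (33.3%, against 26.3% of all genes). The part of such shifts between cell types in the differences of the members was not tested.

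**Figure D1:**
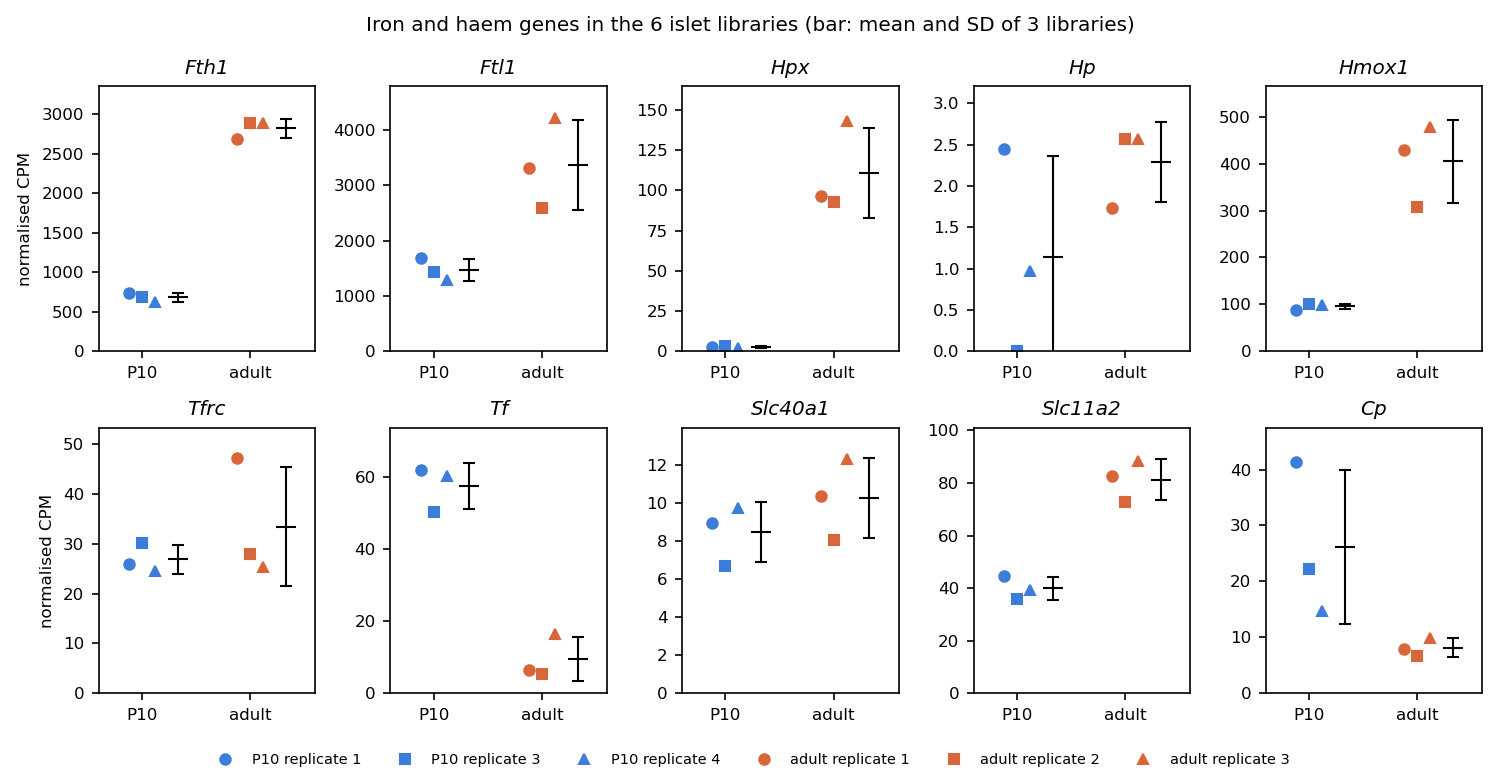
Normalised CPM (vertical axes, each from 0) of the 10 genes in the 3 P10 and 3 adult libraries (horizontal axis); points are libraries and the bar is the mean with the SD. All adult points lie above all P10 points for Fth1, Ftl1, Hpx, Hmox1 and Slc11a2 and below them for Tf and Cp, whereas the ages overlap for Hp, Tfrc and Slc40a1.

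The ferritin heavy chain, Fth1, stood at 743, 688 and 628 CPM in the P10 libraries (replicates 1, 3 and 4, an order kept below) and at 2689, 2893 and 2889 CPM in the adult ones (replicates 1, 2 and 3). The adult libraries lay close together and far above every P10 library. The means were 686 ± 57.5 and 2824 ± 116 CPM (SD, n = 3 each), a fitted difference of 4.11-fold or 2.04 ± 0.11 (SE) on the log2 scale. The ferritin light chain, Ftl1, stood at 1687, 1429.7 and 1288 CPM at P10 and at 3321, 2584 and 4210.2 CPM in adults. Its groups did not overlap either, but the adult libraries were spread more widely than those of Fth1, with a coefficient of variation of 24.2% against 4.11%. The fitted difference of Ftl1 was 2.30-fold, or 1.20 ± 0.16 (SE) on the log2 scale. Ferritin chains have processed copies in the genome, and the RefSeq table lists Ftl1 also as a synonym of a gene on another chromosome. Because reads with more than 1 alignment were not counted, the levels of both chains are uncertain. Such alignments made up between 23.4% and 27.7% of all rows' counts, gene and counter rows together, at P10 and between 15.1% and 17.8% in adults, and their part in the ferritin difference was not tested.

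The heavy and light chains were both higher in adults, but by unlike amounts. Within a library, the ratio of Fth1 to Ftl1 counts does not depend on how libraries are scaled, and it was 0.440, 0.481 and 0.487 at P10 and 0.810, 1.12 and 0.686 in adults. Every adult ratio was above every P10 ratio, and the adult ratios were spread more widely than the gap between the groups. The mean ratio was 0.470 ± 0.0256 at P10 and 0.872 ± 0.223 in adults (SD, n = 3 each), or 1.86-fold higher. Adult replicate 2 had the highest ratio and the lowest Ftl1 level of the adults, and without it the ratio was 1.59-fold higher. The counts are not per transcript length, so the size of the ratio does not say which chain was the more abundant. Together the 2 chains took 0.277%, 0.266% and 0.222% of the gene counts at P10 and 0.525%, 0.429% and 0.616% in adults.

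**Figure D2:**
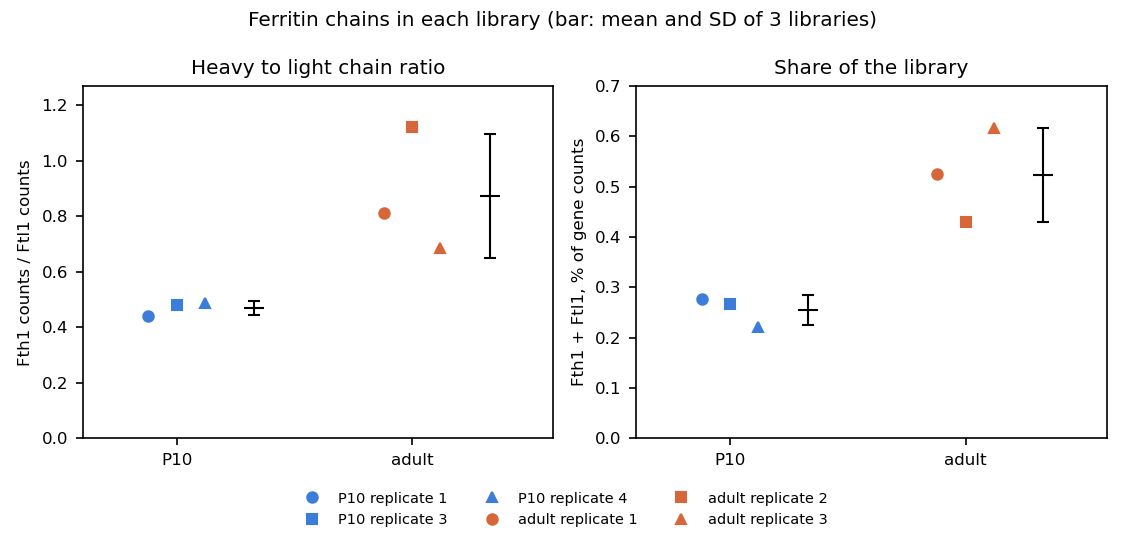
Left, the ratio of Fth1 to Ftl1 read counts, and right, both chains as a percentage of the gene counts (vertical axes from 0), in each P10 and adult library (horizontal axis); the bar is the mean with the SD. The P10 ratios sit between 0.440 and 0.487 and the adult ratios between 0.686 and 1.12.

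Hpx, the haem-binding plasma protein hemopexin, was near the limit of counting at P10, with 20, 22 and 9 counts, or 2.71, 3.27 and 2.18 CPM. In adults it had 279, 253 and 777 counts, or 96.5, 92.7 and 143 CPM. All adult libraries were far above P10, with adult replicate 3 the highest. The fitted difference was 39.7-fold, or 5.31 ± 0.25 (SE) on the log2 scale, the largest among the members. Hepatocytes are the usual source of hemopexin. The 12 hepatocyte markers summed to between 9.81 and 24.1 CPM at P10 and between 10.5 and 28.4 CPM in adults. Of these markers Apoa2 and Cps1 had no count in any library, and Alb, albumin, was at 1.92 ± 1.66 CPM at P10 and 0.659 ± 0.643 CPM in adults (SD, n = 3 each). The part of hepatocyte RNA in the Hpx levels was not tested.

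Haptoglobin, Hp, was barely detected. It had 18, 0 and 4 counts at P10 and 5, 7 and 14 counts in adults, or 2.44, 0 and 0.971 CPM against 1.73, 2.57 and 2.57 CPM. The groups overlapped, and the count of 0 in P10 replicate 3 allows a level of up to 0.446 CPM. Hp stayed below the filter on low counts. Tested without that filter its log2 fold change was 0.99 ± 1.18 (SE), so a difference was not detectable at this depth.

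Hmox1, the inducible enzyme of haem breakdown, stood at 89.2, 100.3 and 97.8 CPM at P10 and at 429.5, 307 and 479 CPM in adults. The P10 libraries were close together, with a coefficient of variation of 6.06%, while the adults were all higher and more widely spread at 21.9%. The fitted difference was 4.24-fold, or 2.08 ± 0.16 (SE) on the log2 scale. Macrophages that clear red cells are known for high Hmox1 and Slc40a1. The 14 macrophage markers summed to 186, 96.3 and 159 CPM at P10 and to 147, 82.8 and 131 CPM in adults, so their ranges overlapped. Of the 11 macrophage markers tested 2 fell, C1qb and Lyz2, and none passed as higher, so 18.2% passed against 26.3% of all genes (edgeR; 1 was higher and 2 lower at an unadjusted p under 0.05, and DESeq2 gave 0 and 1). Cd163, the macrophage receptor for haptoglobin and haemoglobin, had 9 counts over the P10 libraries and 2 over the adult ones. The 8 erythroid markers with a row summed to between 1.08 and 4.46 CPM at P10 and between 1.73 and 4.76 CPM in adults. The part of other cell types in the Hmox1 levels was not tested further.

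Transport genes did not follow 1 direction. Slc11a2, the transporter DMT1, stood at 44.6, 36.0 and 39.3 CPM at P10 and at 82.7, 72.9 and 88.3 CPM in adults, without overlap, a fitted difference of 2.04-fold or 1.03 ± 0.16 (SE) on the log2 scale. Tfrc, the transferrin receptor, stood at 25.9, 30.2 and 24.5 CPM at P10 and at 47.0, 27.9 and 25.3 CPM in adults. Only adult replicate 1 was above the P10 range, and the log2 fold change was 0.30 ± 0.24 (SE). Without adult replicate 1 it was -0.02. Slc40a1, the exporter ferroportin, stood at 8.95, 6.69 and 9.71 CPM at P10 and at 10.4, 8.06 and 12.3 CPM in adults, with overlapping groups and a log2 fold change of 0.30 ± 0.38 (SE). When libraries were scaled by their totals alone, without composition factors, the signs of Tfrc and Slc40a1 turned, to -0.19 and -0.18, and the median of all genes moved to -0.52.

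Tf and Cp, the secreted carriers of iron and copper, were the members with lower adult levels. Tf stood at 62.0, 50.2 and 60.2 CPM at P10 and at 6.57, 5.50 and 16.5 CPM in adults. The groups did not overlap, and adult replicate 3 was the highest adult. The fitted level was 5.61-fold higher at P10, with a log2 fold change of -2.49 ± 0.31 (SE), and 9.43-fold higher without adult replicate 3. Acinar digestive enzyme genes summed to 4273 CPM in adult replicate 3 against 1110.4 and 1227 CPM in adult replicates 1 and 2, and to between 2766 and 4096 CPM at P10. Cp stood at 41.4, 22.3 and 14.8 CPM at P10 and at 7.95, 6.60 and 9.91 CPM in adults. The P10 libraries differed among themselves by more than the lowest of them stood above the adults. The fitted level of Cp was 3.17-fold higher at P10, with a log2 fold change of -1.67 ± 0.36 (SE), and 2.23-fold higher without P10 replicate 1. Fibroblast and duct markers were lower in the same adult libraries (median log2 fold change -2.55 for fibroblast and -3.81 for duct genes), and their part in the lower Tf and Cp was not tested.

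**Figure D3:**
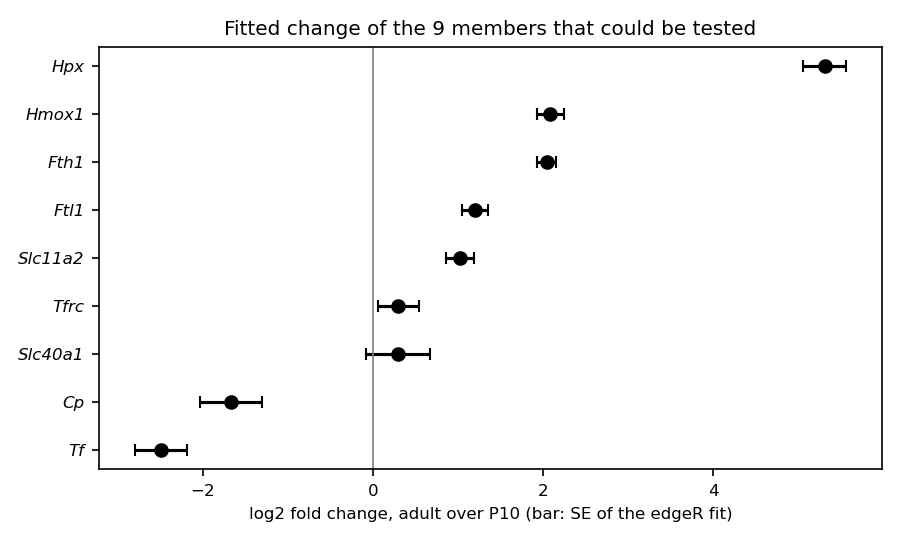
Fitted log2 fold change, adult over P10 (horizontal axis), of the 9 tested members (vertical axis); points are edgeR estimates and bars their SE. Hpx lies at 5.31, Hmox1 and Fth1 near 2, and Tf at -2.49, with the SE of Slc40a1 reaching across 0.

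Promoter sequence is shown for Hpx, the member with the largest difference, and for Tf and Cp, the pair with lower adult levels, so that members which moved in opposite directions can be compared. RefSeq promoters on the GRCr8 build matched 6 of the 10 members, and Fth1, Ftl1, Hp and Hmox1 had no entry. The counts were made on rn5, and no coordinate was carried between the builds. The 250 bases before the annotated start are given 5′ to 3′ for Hpx (chr1:169352156-169352405, minus strand), Tf (chr8:112695377-112695626, minus strand) and Cp (chr2:104368420-104368669, plus strand). Capitals mark matches, on either strand, to TATAA (the TATA box core), AGGTCA (a nuclear receptor half-site), TGACNNNGC (the antioxidant response element core bound by NRF2), TTCNNNGAA (a STAT element) and ACGTG (the core bound by hypoxia-inducible factors).
Hpx: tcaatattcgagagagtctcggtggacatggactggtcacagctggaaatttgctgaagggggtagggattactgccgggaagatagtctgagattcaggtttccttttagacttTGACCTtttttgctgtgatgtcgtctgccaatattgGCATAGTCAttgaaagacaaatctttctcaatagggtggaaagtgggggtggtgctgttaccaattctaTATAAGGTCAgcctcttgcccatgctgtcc
Tf: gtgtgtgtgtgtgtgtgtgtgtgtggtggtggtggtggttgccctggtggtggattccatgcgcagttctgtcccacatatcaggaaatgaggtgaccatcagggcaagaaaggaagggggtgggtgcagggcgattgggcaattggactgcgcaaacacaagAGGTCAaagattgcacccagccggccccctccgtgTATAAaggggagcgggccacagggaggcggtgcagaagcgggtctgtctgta
Cp: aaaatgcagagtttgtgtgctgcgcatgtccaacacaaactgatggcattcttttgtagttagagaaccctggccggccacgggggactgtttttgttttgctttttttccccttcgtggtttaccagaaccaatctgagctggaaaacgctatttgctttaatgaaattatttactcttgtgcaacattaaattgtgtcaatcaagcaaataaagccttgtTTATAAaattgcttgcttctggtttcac
All 3 windows held TATAA, which was present in 24.0% of the 33469 promoter windows. TATAA began 30 bases before the start in Hpx, 52 in Tf and 27 in Cp, where a match on the opposite strand began at 28. In Hpx the TATAA ran into an AGGTCA half-site, the second in that window, and Tf held 1 such site 87 bases before the start, against 14.1% of all windows. Hpx alone of these 3 held TGACNNNGC, 99 bases before the start on the opposite strand, as did 10.1% of all windows. TTCNNNGAA (7.67% of all windows) and ACGTG (16.6%) were in none of the 3, and of the other members with an entry Tfrc held ACGTG, 31 bases before its start. These matches describe the letters of the windows only.

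Genes of iron and haem handling outside the 10 were examined as 5 lists with 84 genes, of which 80 had a row and 66 could be tested. Of these, 7 rose and 3 fell, or 15.2% against 26.3% of all genes tested, and 56 did not pass (edgeR, FDR of 0.05). Their median log2 fold change was -0.09 against -0.03 over all genes. Not passing does not show that a gene was unchanged, since 49 of 99 genes with 2-fold changes were recovered in simulated data.

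In uptake, release and ferritin turnover 1 of 11 tested genes rose and 2 fell (27.3% passed, against 26.3% of all genes). Ncoa4, the receptor that delivers ferritin to the lysosome, stood at 87.3, 95.7 and 92.2 CPM at P10 and at 154, 157 and 163 CPM in adults. The adult libraries lay well above P10, a rise of 1.72-fold (log2 0.78 ± 0.13 SE, edgeR FDR = 0.000287). This rise did not pass under library totals alone (edgeR FDR = 0.138, the highest over the alternatives). The lowest FDR over the alternatives, DESeq2 among them, was 9.91e-08. Lrp1, the receptor that takes up haem bound to hemopexin, stood at 211, 281 and 271 CPM at P10 and at 87.5, 93.1 and 78.8 CPM in adults, a log2 fold change of -1.56 ± 0.14 (SE, edgeR FDR = 1.31e-06). It fell while Hpx was higher in the same libraries. Lrp1 is also a gene of fibroblasts, whose markers were lower, and that part was not tested. Pcbp4, a relative of the iron chaperones, fell from 77.7 ± 4.55 to 47.9 ± 3.52 CPM (SD, n = 3; edgeR FDR = 0.00360). Slc39a14, the zinc and iron importer ZIP14, was at 37.4 ± 4.50 and 40.1 ± 2.68 CPM (SD, n = 3), short of the threshold. Steap3, the endosomal ferric reductase, was at 4.63 ± 0.923 and 1.55 ± 0.396 CPM (SD, n = 3), also short of it (edgeR FDR = 0.0862).

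Among the regulators of iron 1 of 12 rose (8.33% passed, against 26.3% of all genes) and the other 11 did not pass. The riser was Epas1, the hypoxia-inducible factor HIF-2 alpha, at 39.6, 45.2 and 44.7 CPM at P10 and 135, 123 and 94.6 CPM in adults. No adult library overlapped with P10, and the rise was 2.71-fold (log2 1.44 ± 0.16 SE, edgeR FDR = 1.17e-05). The iron regulatory proteins, which bind ferritin and transferrin receptor mRNAs, did not pass: Aco1 was at 35.7 ± 7.73 and 37.8 ± 12.9 CPM, and Ireb2 at 8.46 ± 2.33 and 9.68 ± 1.20 CPM (SD, n = 3). Nfe2l2, which encodes NRF2, an activator of Hmox1 and ferritin genes, was at 50.4 ± 9.48 and 42.6 ± 5.44 CPM, and Bach1, a haem-sensing repressor of Hmox1, at 19.1 ± 5.06 and 21.4 ± 8.90 CPM (SD, n = 3). Neither passed.

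Of 12 haem synthesis genes 2 rose, Ppox and Abcb6 (16.7% passed, against 26.3% of all genes). Alas1, the rate-limiting enzyme, was at 25.9 ± 8.36 and 26.5 ± 1.38 CPM, and Fech, which inserts iron into haem, at 15.8 ± 3.74 and 12.0 ± 3.48 CPM (SD, n = 3). Ppox, the protoporphyrinogen oxidase, rose 1.67-fold and Abcb6, a porphyrin transporter, 1.70-fold, both just past the threshold (edgeR FDR = 0.0463 and 0.0450). Neither gene passed when P10 replicate 1, P10 replicate 3 or any 1 of the 3 adult replicates was left out, and Ppox passed under 2 of the 13 alternatives. Over the alternatives (edgeR or DESeq2) the FDR reached 0.516 for Ppox and 0.468 for Abcb6, with lowest values of 0.0430 and 0.0156. In haem breakdown and export 2 of 6 rose (33.3% passed, against 26.3% of all genes). Pgrmc1, a haem-binding membrane protein, rose 2.04-fold from 133 ± 24.6 to 271 ± 15.7 CPM (SD, n = 3; edgeR FDR = 8.62e-05). Por, the reductase that supplies electrons to haem oxygenase and cytochromes P450, rose 1.76-fold from 163 ± 16.5 to 286 ± 24.6 CPM (SD, n = 3; edgeR FDR = 0.000225), a call lost under library totals alone (FDR = 0.0932, against a lowest of 9.25e-09). Hmox2, the constitutive haem oxygenase, was at 31.4 ± 4.79 and 40.3 ± 5.61 CPM, and Blvrb, a biliverdin reductase, at 14.0 ± 4.96 and 19.6 ± 7.08 CPM (SD, n = 3). Neither passed, and Hmox2 has a pseudogene with its own row, so its reads may be split.

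Mitochondrial iron and iron-sulphur cluster genes mostly stayed under the threshold. Of these, 1 of 25 was higher and 1 lower (8% passed, against 26.3% of all genes). Their summed level was between 821 and 852 CPM at P10 and between 820.3 and 854 CPM in adults. Hspa9, the mitochondrial chaperone mortalin, rose 1.86-fold (edgeR FDR = 0.000192), a call lost under library totals alone (FDR = 0.0603, against a lowest of 1.86e-08). Glrx5, a glutaredoxin of cluster assembly, stood at 20.2, 25.4 and 34.0 CPM at P10 and at 8.99, 19.4 and 5.14 CPM in adults, with the highest adult just under the lowest P10 library. It fell by 1.30 on the log2 scale (edgeR FDR = 0.0213), and by 1.94 without adult replicate 2, while it did not pass when P10 replicate 4, adult replicate 1 or adult replicate 3 was left out (FDR up to 0.112, lowest 0.000967). Slc25a37, the iron importer mitoferrin 1, stayed short of the threshold, with 3.89 ± 0.925 CPM at P10 and 4.36 ± 0.850 CPM in adults (SD, n = 3).

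**Figure D4:**
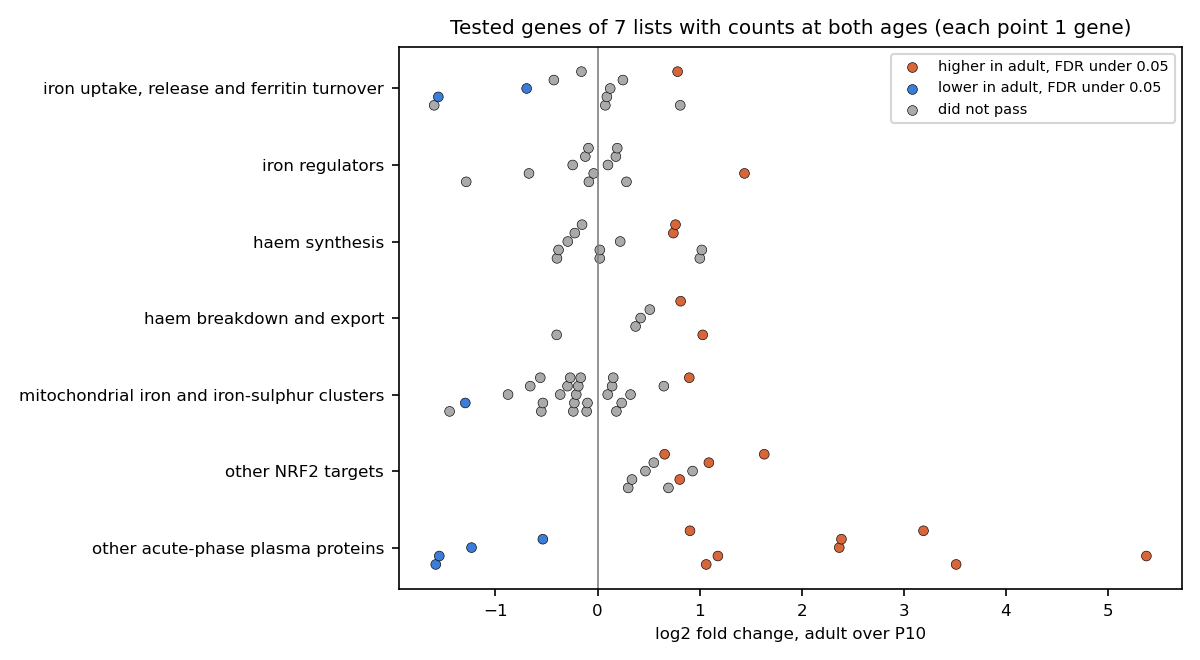
Fitted log2 fold change, adult over P10 (horizontal axis), of the 88 tested list entries with counts at both ages, by list (vertical axis); each point is 1 gene, and colour gives the edgeR call at an FDR of 0.05. Most points of the 5 iron and haem lists are grey and near 0, whereas those of the NRF2 targets lie to the right and those of the acute-phase proteins on both sides.

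Because Hmox1 and both ferritin chains are known targets of NRF2, 10 other targets were examined beside them. Of these 4 rose in edgeR (40%, against 12.5% of all genes tested), none fell and 6 did not pass. At an unadjusted edgeR p under 0.05, 7 were higher and 0 lower, and DESeq2 called 4 as higher and 0 as lower. Srxn1, sulfiredoxin, rose 3.10-fold from 39.5 ± 2.04 to 122 ± 24.4 CPM (SD, n = 3; edgeR FDR = 3.78e-06), and Nqo1, a quinone reductase, 2.13-fold from 60.0 ± 2.76 to 127 ± 26.0 CPM (SD, n = 3; edgeR FDR = 0.000114). Me1, malic enzyme, rose 1.58-fold (edgeR FDR = 0.0163), a call lost under library totals alone (FDR = 0.551, against a lowest of 0.00644) and without adult replicate 1 or 2. The median log2 fold change of the 10 was 0.68, and the libraries did not overlap in 9 of them, or 90% against 42.3% over all genes. These 10 were also listed with earlier results of these data known, so nothing is read from their shares. The part of NRF2 in their levels was not tested.

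Hpx, Hp and Cp are acute-phase plasma proteins, and 18 others of that kind were examined, of which 13 could be tested. All 13 passed, against 26.3% of all genes tested. Of these 8 were higher in adults (61.5%, against 12.5% of all genes) and 5 were lower. Fgb and Fgg, fibrinogen chains, rose 11.4-fold and 5.16-fold (edgeR FDR = 9.21e-10 and 8.60e-09), C3, complement component 3, 9.15-fold (FDR = 3.40e-07), and C4bpa, which binds complement C4b, 5.24-fold (FDR = 6.83e-05). Serpina3n, a protease inhibitor, fell by 1.55 on the log2 scale, Itih3, a hyaluronan-binding inhibitor chain, fell by 1.58, and Serpina1, alpha-1 antitrypsin, fell by 0.54. Serpina1 did not pass when P10 replicate 3 or 4, or adult replicate 1 or 3, was left out. Lbp, the lipopolysaccharide-binding protein, had 106 counts over the P10 libraries and no adult count. With 3 counts over all adult libraries as the floor it was at least 21.5-fold lower there. The list was written with earlier results of these data known, among them the rise of another fibrinogen chain, Fga. Fga had 4 counts over the P10 libraries and 125 over the adult ones, so Fga and Lbp passed the filter on low counts through 1 age only. Nothing is read from the shares of this list.

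The genes whose levels ran most closely with 3 of the members over the 6 libraries, among 8779 genes of at least 5 CPM on average, were found by Pearson's r of log2 CPM. For Fth1 they included Fgg and Casc4 (r = 0.999 and 0.998), for Hpx they included Fgb and Fth1 (r = 0.996 for both), and for Hmox1 they were Bdh1, Enc1 and Ddx58 (r = 0.998, 0.996 and 0.996). The libraries fall into 2 sets by age and share their depth and scaling, so these values are given as a description of likeness only. Among the members Slc11a2 also ran with Fth1 (r = 0.976). The highest r of Tfrc with another member was 0.435, with Hmox1, and the lowest was -0.547, with Tf.

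**Figure D5:**
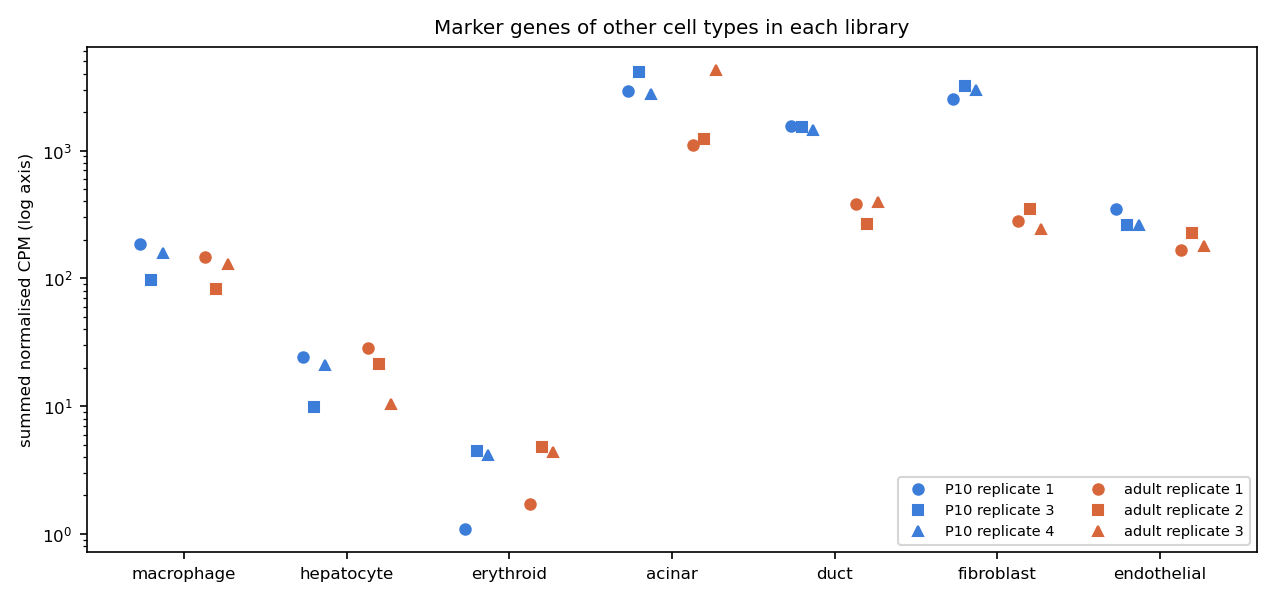
Summed normalised CPM (vertical log axis) of marker genes of 7 other cell types (horizontal axis) in each P10 and adult library; each point is 1 library. Macrophage, hepatocyte and erythroid sums overlap between the ages, duct, fibroblast and endothelial sums are lower in every adult library, and the acinar sum of adult replicate 3 is 4273 CPM.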

How the data were processed

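Oligo(dT)-selected islet RNA was read from 1 end without strand information, per the labels' protocols. The authors deposited raw counts of reads for each gene symbol, 1 file for each of the 6 libraries. Bowtie2, TopHat2 2.0.10, HTSeq, DESeq and edgeR are named with the rn5 build, without roles, per the submitters' processing notes. The counter rows of the deposited files set aside ambiguous reads (0.319% to 0.474%) and alignments that were not unique (23.4% to 27.7% at P10, 15.1% to 17.8% in adults), and list 0 reads outside genes. These 5 rows stayed out of library sizes and tests.

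Genes were kept by filterByExpr of edgeR 4.0.16 (R 4.3.3; minimum count 10, total 15), scaled by TMM, and tested by a quasi-likelihood model with age as the only term. The adjusted p is the Benjamini-Hochberg FDR over the 10124 genes tested. Each SE was taken as the size of the log2 fold change over the root of its F statistic. P-values weigh the age difference against the spread between these libraries, which may not be one between single animals. DESeq2 1.42.0, other scalings and filters, a replicate block and leaving out each library were tried. The lowest and highest FDRs given over these alternatives take in those of DESeq2, which uses another test than edgeR. The code was tested on simulated data.

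The 10 members and all lists were chosen with earlier results of these data known. Named genes are the members, 14 fixed genes, up to 4 per list and direction by p, the 3 most alike to Fth1, Hpx and Hmox1, and selected markers. Ftl1, Isca2 and Mms19 were matched by RefSeq synonyms. Some genes that these rules name are not reported here. C1qb, Lyz2, Cd163 and Alb were named after their values were seen.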

Additional observations from a re-analysis of the deposited data

How the results depend on the processing

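The counts of 5 higher and 2 lower members were the same under all 13 alternatives, but the sizes of the differences depended on the scaling. Under library totals alone the adult levels of Fth1, Ftl1, Hpx, Hmox1 and Slc11a2 were 2.92, 1.64, 28.3, 3.02 and 1.45-fold higher, less than reported. Tf and Cp were 7.82-fold and 4.41-fold higher at P10 there, more than reported. Of the 117 member values under alternatives 114 kept their direction and side of the threshold. The ferritin ratio was between 1.59-fold and 2.05-fold higher in adults when single libraries were left out. Under library totals alone, 343 genes were higher and 3612 lower over all genes, and 2 and 23 of the other iron and haem genes, against 1265 and 1394, and 7 and 3. The log2 fold changes that turned sign there were those of Tfrc (-0.19), Slc40a1 (-0.18), Hmox2 (-0.12), Aco1 (-0.40), Ireb2 (-0.29), Bach1 (-0.31), Alas1 (-0.47), Slc39a14 (-0.40) and Slc25a37 (-0.33), none of which passed in the test as reported. Leaving out each library in turn also moved values across 0: Tfrc ran from -0.017 to 0.48, Aco1 from -0.21 to 0.30, Bach1 from -0.051 to 0.47, Alas1 from -0.20 to 0.19 and Slc25a37 from -0.026 to 0.31. Nfe2l2, Fech and Steap3 passed as lower under library totals alone (log2 -0.73, -0.89 and -2.08, edgeR FDR = 0.00672, 0.0441 and 0.0208). None of these 3 passed in the test as reported. The causes were not tested.

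The replicate numbers 1 and 3 occur at both ages, and same-numbered libraries did not deviate together (r = -0.036 and -0.00482 across genes), so the numbers were not taken as pairs. With the replicate number as a block, 679 genes were higher and 729 lower over all genes. Pcbp4, Ppox and Serpina1 did not pass there, and Alas1 turned to -0.18. P10 replicate 4 and adult replicate 2 have no counterpart at the other age, so they do not bear on the age difference in this setting. Among the 10 members, depth left Hp alone untested.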
